A study of Mus musculus with 4 samples.

Results

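The 10 genes followed here belong to the transcription factor network that makes and keeps islet endocrine cells, and were read in 4 single-cell libraries of mouse islets. They were picked by name, as the rows of the count tables with the symbols Mafa, Pdx1, Nkx6-1, Nkx2-2, Mnx1, Neurod1, Pax6, Isl1, Foxa2 and Neurog3, and all 10 were found once among the 31053 genes of the tables. The 4 samples came from a single pool of islets of C57BL/6 mice (adult males of the J substrain, per the study's methods). Each was cultured as whole islets, 1 without cytokine (untreated) and the others with IL-1β, IFN-γ or both cytokines for 6 h. The islets were then dissociated and sequenced from the 3′ end with unique molecular identifiers (UMIs), each of which marks 1 captured RNA molecule. The libraries held 50731370 UMIs (untreated), 20056630 (IL-1β), 31209339 (IFN-γ) and 25716645 (both) in 3486, 2911, 3694 and 2480 barcodes, and series of 4 values below keep this order. Pairs of libraries shared 16 barcodes, 4 of them among the cells kept. With 1 library per condition no difference between conditions could be tested, and every interval below is a 95% interval that covers counting error only, not the spread between islet preparations.

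These proteins act in sequence and together. Neurog3 sets pancreatic progenitors on the endocrine path and switches on Neurod1, Pax6, Isl1 and Nkx2-2, which most endocrine cells keep, while Foxa2 acts from the early endoderm onward. Pdx1, Nkx6-1, Mnx1 and, last of all, Mafa give β-cells their own program, in which they bind the insulin genes and genes for glucose uptake and secretion, and loss of their transcripts is a known feature of stressed and diabetic islets.

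A cell was kept when it had 200 to 4000 genes and no more than 12% mitochondrial UMIs, which left 1521, 2018, 2122 and 1810 cells. The upper limit alone removed 843 untreated cells, against 146, 345 and 222 in the cytokine libraries. A kept cell was put in a class when hormone UMIs made up at least 10% of its UMIs and 1 hormone at least 60% of those, which gave 1173, 1091, 1225 and 1262 β-cells (insulin), 88, 322, 261 and 162 α-cells (glucagon), 31, 57, 107 and 43 δ-cells (somatostatin) and 30, 30, 61 and 51 PP-cells (pancreatic polypeptide). In every library all 7 β-cell markers that the class rule did not use, among them Slc2a2, Ucn3 and Prlr, had their highest level in the β class. Of the 6 α-cell markers, 5 or 6 were highest in the α class, and 5 of the 6 δ-cell markers, among them Hhex and Cd24a, were highest in the δ class. The PP class was less distinct, since only 1 or 2 of its 5 markers were highest there, so that it is named here by its hormone alone. A lower hormone share of 5%, chosen after seeing the data because many somatostatin cells missed the limit, gave 45, 113, 146 and 67 δ-cells.

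Levels are given as UMIs of a gene per 1000000 UMIs of all genes in the cells of a class (CPM). They were not divided by transcript length, and they are compared between conditions and classes, not between genes. The insulin share of β-cell UMIs was 42.2% in untreated islets, 22.7% after IL-1β, 29.3% after IFN-γ and 33.8% after both cytokines, so that every other transcript had more room in the cytokine libraries. The median log2 ratio to untreated over the 9191 genes measured in β-cells was 0.37 (IL-1β), 0.29 (IFN-γ) and 0.05 (both), and with 7 hormone genes left out of the totals it was -0.07, -0.02 and -0.21. Ratios to untreated in β-cells, and counts, are therefore also given on these hormone-free totals. The median depth of a β-cell was 17263 UMIs in the untreated library and 8728, 11352 and 12354 UMIs in the others.

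The β-cell factors were much lower in the libraries that had received IL-1β, and Mafa, the factor of mature β-cells that drives insulin transcription, showed this most. In untreated β-cells Mafa stood at 617 CPM (606 to 628) from 12398 UMIs. It was 71.7 CPM (66.5 to 77.3) with IL-1β, 467 CPM (456 to 479) with IFN-γ and 52.2 CPM (48.7 to 55.9) after both cytokines. No 2 of these intervals overlapped, and the order was untreated, IFN-γ, IL-1β and both. The level was 8.59-fold lower with IL-1β (7.97 to 9.29) and 11.8-fold lower with both cytokines (11.0 to 12.7), against 1.32-fold lower with IFN-γ (1.28 to 1.36). On hormone-free totals these folds were 11.6, 13.9 and 1.63. Only 6 of the 9191 measured genes had a lower ratio than Mafa after IL-1β and only 7 after both cytokines, counting genes of every kind.

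Fewer single β-cells held Mafa in both libraries with IL-1β. A Mafa UMI was found in 88.7% of untreated β-cells, 28.5% with IL-1β, 77.2% with IFN-γ and 37.8% in the combined library. After every cell was thinned to 4000 UMIs, which left out 21, 53, 41 and 27 shallower β-cells, the shares were 72.1%, 16.5%, 59.9% and 16.5%. The same share in cells that should lack the gene, the endothelial-, macrophage- and mesenchymal-like cells, was 5.88%, 0%, 4% and 1.72% without thinning, at median depths of 7751, 5026, 7765 and 9547 UMIs. What Mafa remained after IL-1β was unevenly spread, as the tenth of β-cells with the most Mafa UMIs held 70.8% of them, against 32.3% in untreated islets, 40.4% with IFN-γ and 52.6% in the combined library. The part of the lower depth of the IL-1β library in this spread was not tested.

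Pdx1, which is needed to form the pancreas and later binds the insulin and Slc2a2 genes, stood at 140 CPM in untreated β-cells (135 to 145). It was 47.7 CPM (43.4 to 52.2) with IL-1β, 104 CPM (98.6 to 109) with IFN-γ and 32.2 CPM (29.5 to 35.1) after both cytokines. All 4 intervals were again apart, in the same order as for Mafa. This was 2.94-fold lower with IL-1β (2.67 to 3.25), 1.35-fold lower with IFN-γ (1.27 to 1.44) and 4.35-fold lower with both (3.96 to 4.79), and on hormone-free totals 3.96-, 1.67- and 5.12-fold lower.

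Nkx6-1 represses the α-cell program and supports insulin secretion. Its level was 221 CPM (215 to 228) untreated, 125 CPM (118 to 132) with IL-1β, 196 CPM (188 to 203) with IFN-γ and 91.5 CPM (86.9 to 96.4) after both cytokines. The combined library was thus lowest by 2.42-fold (2.28 to 2.57), and IL-1β alone was 1.77-fold lower (1.66 to 1.89). On hormone-free totals it was 2.39-, 1.40- and 2.84-fold lower with IL-1β, IFN-γ and the pair. Nkx2-2, which holds β-cells apart from other endocrine fates, gave 82.5 CPM (78.5 to 86.5) untreated, 35.8 CPM (32.2 to 39.8) with IL-1β, 86.3 CPM (81.5 to 91.4) with IFN-γ and 18.7 CPM (16.6 to 21.0) after both. On all UMIs the untreated and IFN-γ intervals overlapped for this gene, whereas it was 2.30-fold lower with IL-1β (2.05 to 2.59) and 4.41-fold lower with both (3.89 to 5.01). On hormone-free totals IFN-γ turned from a ratio of 1.05 to 0.847 (0.786 to 0.913), and the ratio was 0.323 with IL-1β and 0.193 with both. Mnx1, a homeobox factor that keeps β-cells from taking a δ-cell fate, had few UMIs and levels of 16.2 CPM (14.5 to 18.1), 7.25 CPM (5.66 to 9.14), 11.0 CPM (9.36 to 12.9) and 6.28 CPM (5.10 to 7.64) in the same order of libraries. Its IL-1β and combined values had overlapping intervals and lay below the other two, and on hormone-free totals Mnx1 was 3.01-, 1.81- and 3.04-fold lower.

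**Figure D1:**
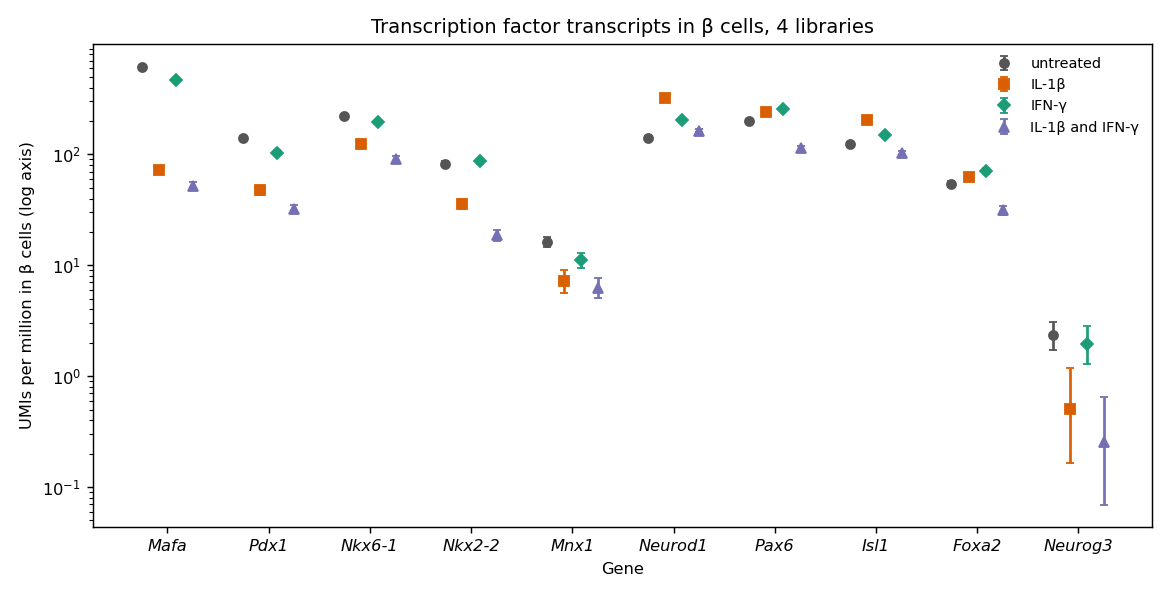
Level of each of the 10 factors in β-cells, in CPM on a log axis, for the 4 libraries, with 1 point per library and bars for the 95% exact Poisson interval of the count. Mafa, Pdx1, Nkx6-1, Nkx2-2 and Mnx1 are low in both libraries with IL-1β, while Neurod1, Pax6, Isl1 and Foxa2 have their lowest points in the combined or the untreated library.

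Neurod1, Pax6, Isl1 and Foxa2 did not follow that pattern, which Nkx2-2, also kept by other endocrine classes, did. Neurod1, a bHLH activator of the insulin gene, stood at 142 CPM (137 to 147) in untreated β-cells and at 321 CPM (310 to 332) with IL-1β, 205 CPM (198 to 213) with IFN-γ and 164 CPM (158 to 171) in the combined library. It was highest with IL-1β, by 2.27-fold (2.15 to 2.38) and by 1.68-fold on hormone-free totals. With IFN-γ the ratios were 1.45 and 1.17, and with both cytokines it was 1.16-fold higher than untreated on all UMIs and 0.985-fold on hormone-free totals, a change of direction. Isl1, a LIM-homeodomain factor of mature islet cells, had levels of 125 CPM (120 to 130) untreated, 204 CPM (195 to 213) with IL-1β, 150 CPM (144 to 157) with IFN-γ and 103 CPM (98.3 to 108) after both. The IL-1β value was 1.63 times the untreated one (1.54 to 1.73), and 1.21 times on hormone-free totals. With IFN-γ its ratio went with the scaling from 1.20 to 0.971 (0.916 to 1.03), an interval that includes 1, and with both cytokines the ratios were 0.825 and 0.702.

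Pax6, which sustains hormone gene transcription in every endocrine cell, was at 200 CPM (194 to 206) untreated, 239 CPM (230 to 249) with IL-1β, 256 CPM (248 to 265) with IFN-γ and 114 CPM (109 to 119) in the combined library. Foxa2, a pioneer factor that opens chromatin, had levels of 54.0 CPM (50.9 to 57.3), 62.7 CPM (57.8 to 67.8), 71.0 CPM (66.7 to 75.6) and 31.2 CPM (28.5 to 34.1) in the same order. Both genes were therefore lowest with both cytokines together, by 1.76-fold for Pax6 (1.66 to 1.86) and 1.73-fold for Foxa2 (1.55 to 1.93), although neither cytokine alone gave a value below untreated on all UMIs. On hormone-free totals IL-1β alone gave values of 0.889 and 0.863 times untreated for Pax6 and Foxa2, IFN-γ 1.04 and 1.06 times, and the pair of cytokines 0.484 and 0.491 times. Their combined level was also about 2-fold below that with either cytokine alone, at ratios of 0.475 (0.447 to 0.506) and 0.444 (0.419 to 0.470) to IL-1β and IFN-γ for Pax6, and of 0.498 (0.441 to 0.562) and 0.439 (0.394 to 0.490) for Foxa2. Neurog3, the progenitor factor, was barely seen in β-cells, with 47, 5, 27 and 4 UMIs in 30, 5, 20 and 2 cells, and it did not pass the filter on low genes there.

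A gene was counted as measured when its mean over the 4 libraries was at least 5 CPM from at least 40 UMIs, and as lower or higher when it differed from untreated by at least 1.5-fold. Of the 10 factors 9 were measured in β-cells. After IL-1β 5 of them were lower, namely Mafa, Pdx1, Nkx6-1, Nkx2-2 and Mnx1, against 8.99% of all 9191 measured genes, and 2, Neurod1 and Isl1, were higher, against 36.3% of all. The call for Isl1 was lost on hormone-free totals (a ratio of 1.21 in place of 1.63, with 15.4% of all genes higher), after division by the median ratio, with per-cell means and at 4000 UMIs or 2500 non-hormone UMIs per cell. After IFN-γ none of the 9 was lower or higher, against 1.06% and 17.7% of all genes. After both cytokines 7 were lower, as Pax6 and Foxa2 joined the first 5, against 17.3% of all genes, and none was higher, against 20.5%. The median log2 ratio of the 9 was -0.83, 0.07 and -1.27 in the 3 comparisons, beside the medians of 0.37, 0.29 and 0.05 over all genes. With the hormone genes out of the totals the counts lower were 5, 3 and 7, against 22.7%, 5.67% and 28.6% of 10065 measured genes, and the 3 after IFN-γ were Mafa, Pdx1 and Mnx1, whose folds of 1.32, 1.35 and 1.47 on all UMIs lay under the 1.5-fold limit. The 3 comparisons share the untreated library, so that their counts are not independent of each other.

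**Figure D2:**
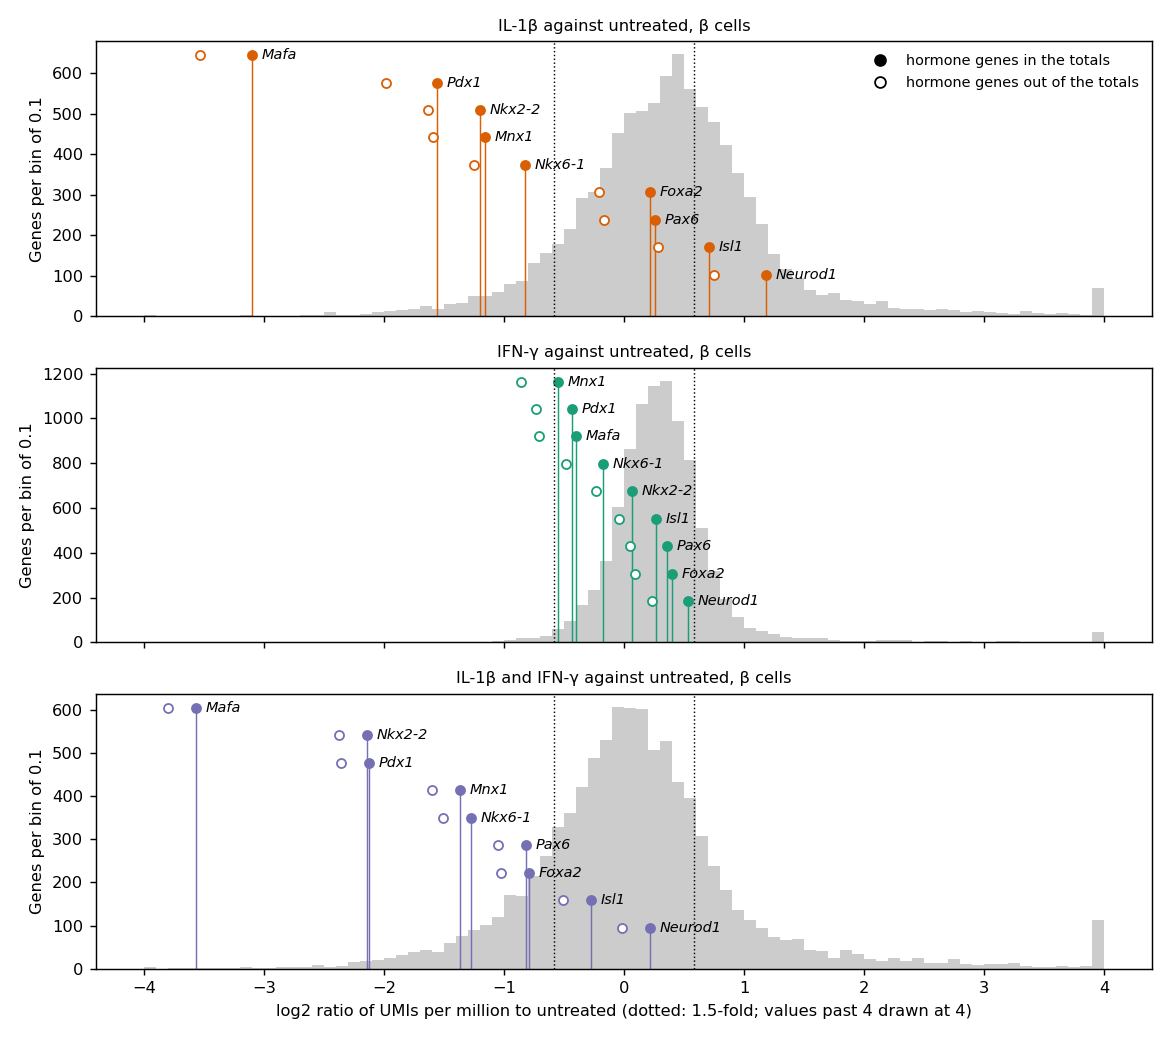
Distribution of the log2 ratio to untreated over 9191 genes measured in β-cells (grey, genes per bin), for IL-1β, IFN-γ and both cytokines, with the 9 measured factors as filled circles (all UMIs in the totals) and open circles (hormone genes out of the totals). Mafa, Pdx1, Nkx2-2, Mnx1 and Nkx6-1 lie left of the dotted 1.5-fold line after IL-1β and after both cytokines, and every open circle lies to the left of its filled one.

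Whether IFN-γ added anything to IL-1β was read from the combined against the IL-1β library. The combined level was below that of IL-1β alone for Mafa (ratio 0.728, 0.657 to 0.806), Pdx1 (ratio 0.676, 0.595 to 0.768) and Nkx6-1 (ratio 0.733, 0.679 to 0.792). The ratio was 0.522 for Nkx2-2 (0.446 to 0.612), 0.511 for Neurod1 (0.485 to 0.539) and 0.506 for Isl1 (0.473 to 0.540). The interval for Mnx1 included a ratio of 1 (0.867, 0.632 to 1.19). The scaling matters here, since on hormone-free totals the ratios of Mafa, Pdx1 and Nkx6-1 were nearer to 1, at 0.832, 0.773 and 0.839. Genes in general also stood lower in the combined library. Their median log2 ratio to untreated was 0.37 with IL-1β and 0.05 with both, and -0.07 and -0.21 on hormone-free totals. No share of all genes is given for the combined against the IL-1β library. For Mafa the comparison also depended on the cells (splits described below). Below 10 Hspa1a per 10000 UMIs it was 48.2 CPM (44.7 to 51.9) combined and 54.7 CPM (50.02 to 59.7) with IL-1β. In cells with a Nos2 UMI it was 42.7 and 34.1 CPM, and in those without 82.4 and 91.2 CPM. At 2500 non-hormone UMIs per cell 18.1% and 15.4% of β-cells held Mafa.

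Counted over the whole set, a β-cell carried fewer of the 10 factors after the combined treatment. At 4000 UMIs per cell the mean number of factors with at least 1 UMI was 3.58 in untreated β-cells (median 4), 2.71 with IL-1β (median 3), 3.54 with IFN-γ (median 4) and 1.91 with both cytokines (median 2). The share of β-cells with 6 or more factors was 9.55%, 2.12%, 9.38% and 0.567% in that order, and the share with 2 or fewer was 24.0%, 44.0%, 25.8% and 69.1%. In α-cells the means were 2.09, 2.44, 2.59 and 1.90, and in δ-cells 2.85, 2.22, 2.97 and 1.37, so that in all 3 classes the combined library had the lowest mean. At this depth both Mafa and Pdx1 were seen in 30.9% of untreated β-cells, 4.72% with IL-1β, 22.8% with IFN-γ and 1.94% in the combined library. Within the IL-1β library 28.7% (22.0 to 36.1) of cells with a Mafa UMI also had Pdx1, against 14.9% (12.6 to 17.4) of cells without Mafa. The same shares were 42.8% (39.4 to 46.3) and 38.3% (33.0 to 43.9) in untreated islets and 38.1% (34.5 to 41.8) and 28.0% (24.0 to 32.3) with IFN-γ, and in the combined library they were 11.8% (7.69 to 17.0) and 13.3% (11.3 to 15.5).

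**Figure D3:**
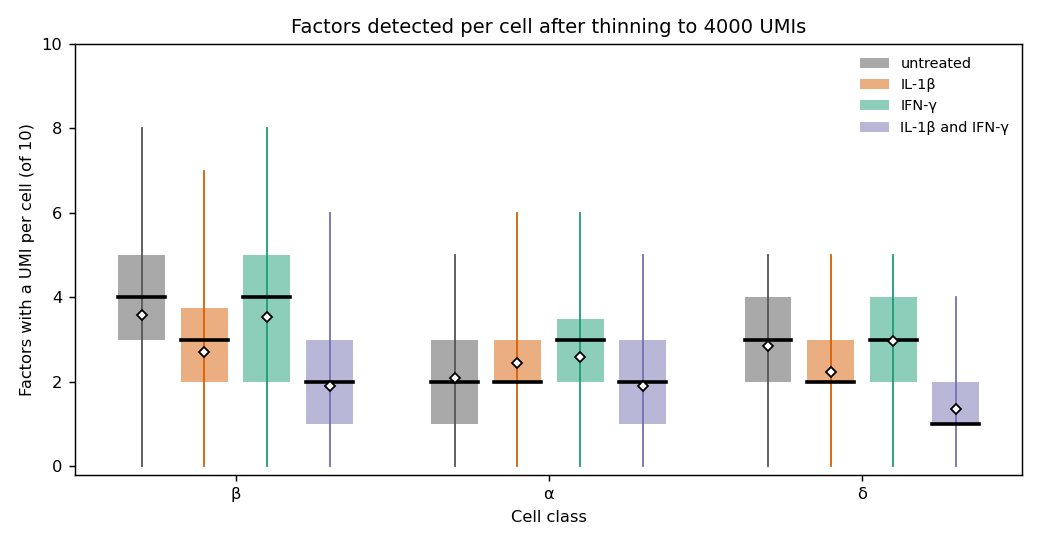
Number of the 10 factors with at least 1 UMI in a cell, after each cell was thinned to 4000 UMIs, for β-, α- and δ-cells of the 4 libraries. Boxes span the quartiles, black lines are medians, white diamonds are means and thin lines reach the lowest and highest cell. The mean is lowest in the combined library in each class (1.91, 1.90 and 1.37).

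The upstream sequence is shown for 5 of the factors. Pdx1, Nkx2-2 and Mnx1 are 3 of the 5 that were lower after IL-1β, and Pax6 and Foxa2 are 2 that were not lower after IL-1β alone. Each is the stretch of the 250 bases before the RefSeq start that holds no annotated exon, from the GRCm38.p6 build, read 5′ to 3′ on the strand of the gene, and capitals mark places that match GGGNNNNNCC, the core of the NF-κB site, on either strand. NF-κB is the main factor that IL-1β signaling activates. The Nkx2-2 stretch lies inside the longer gene that GENCODE annotates, which starts farther upstream. Nkx6-1 is left out since its window lies wholly within an annotated exon, and Mafa since it had no RefSeq window. Neurod1 and Isl1, also not lower after IL-1β, are not shown, and their stretches held 0 such places.
Pdx1, chr5:147269847-147269958, plus strand, 112 bases: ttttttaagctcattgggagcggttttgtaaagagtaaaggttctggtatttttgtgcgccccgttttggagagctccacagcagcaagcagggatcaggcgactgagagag
Nkx2-2, chr2:147186456-147186652, minus strand, 197 bases: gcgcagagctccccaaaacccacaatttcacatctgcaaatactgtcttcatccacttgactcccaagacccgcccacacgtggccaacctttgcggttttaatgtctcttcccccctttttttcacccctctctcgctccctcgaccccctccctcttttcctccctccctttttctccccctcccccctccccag
Mnx1, chr5:29478471-29478720, minus strand, 250 bases: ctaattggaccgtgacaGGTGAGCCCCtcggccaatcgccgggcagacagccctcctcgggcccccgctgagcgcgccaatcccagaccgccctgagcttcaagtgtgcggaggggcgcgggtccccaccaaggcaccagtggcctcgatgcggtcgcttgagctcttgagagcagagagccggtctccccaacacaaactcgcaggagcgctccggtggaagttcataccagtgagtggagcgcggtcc
Pax6, chr2:105668646-105668895, plus strand, 250 bases: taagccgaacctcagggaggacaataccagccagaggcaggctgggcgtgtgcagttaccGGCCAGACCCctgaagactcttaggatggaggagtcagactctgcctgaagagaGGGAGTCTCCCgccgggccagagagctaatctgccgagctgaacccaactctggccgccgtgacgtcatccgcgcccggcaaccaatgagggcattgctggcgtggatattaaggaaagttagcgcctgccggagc
Foxa2, chr2:148046970-148047219, minus strand, 250 bases: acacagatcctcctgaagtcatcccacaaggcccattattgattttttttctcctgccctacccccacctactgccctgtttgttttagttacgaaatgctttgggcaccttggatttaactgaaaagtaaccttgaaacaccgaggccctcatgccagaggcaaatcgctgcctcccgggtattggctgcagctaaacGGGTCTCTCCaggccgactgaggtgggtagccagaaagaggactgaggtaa

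The match was found at 0 places in the Pdx1 and Nkx2-2 stretches, 1 in Mnx1, 3 in Pax6, of which 2 overlap, and 1 in Foxa2. Over the whole 250 bases before each RefSeq start, which for some factors take in exons of a longer annotated transcript, it was in 6 of the 12 windows of the factors, as in 45.8% of all 32851 windows of the same length in the mouse table. The whole Pdx1 window held 2 places, both in the part not shown, while the other Pax6 window and the other 2 Foxa2 windows held 0, so no contrast between the lower and the other factors is read from this motif. TAAT, the core read by homeodomain proteins such as Pdx1 and Nkx6-1, was in 7 of the 12 windows against 54.9% of all, and CANNTG, the E-box read by Neurod1, in 8 of the 12 against 66.2%. These motifs were searched on both strands, none of them contains another, and a match of letters is a description of the window, not a bound site.

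Across the endocrine classes each factor had its own range. In untreated islets Mafa was at 617 CPM in β-cells, 35.8 CPM (19.6 to 60.1) in PP-cells, 22.5 CPM (8.27 to 49.1) in δ-cells and 9.001 CPM (3.89 to 17.7) in α-cells, where the last 3 have overlapping neighbours. The 8 Mafa UMIs in untreated α-cells were close to the 7.20 that would be carried in if all insulin RNA there came along with β-cell RNA, so no expression is read from them, whereas the 14 Mafa UMIs of untreated PP-cells stood against 3.69. Mnx1 was seen almost only in β-cells, with 0 UMIs in untreated α-, δ- and PP-cells, and 2 UMIs in all 4 libraries together in those classes. Pdx1 on all UMIs was as high in δ-cells, at 135 CPM (94.8 to 187), as in β-cells. It was low in PP-cells (23.0 CPM, 10.5 to 43.7) and α-cells (7.88 CPM, 3.17 to 16.2). The hormone-free level of Pdx1 was lower in δ-cells, at 185 CPM (130 to 256), than in β-cells, at 268 CPM (258 to 278). Its 36 δ-cell UMIs stood against 0.472 UMIs carried along with insulin RNA.

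Nkx6-1 followed another order, with 221 CPM in β-cells, 110 CPM (79.6 to 148) in PP-cells, 22.5 CPM (13.7 to 34.8) in α-cells and 11.3 CPM (2.33 to 32.9) in δ-cells. Nkx2-2 on all UMIs was at 82.5 CPM in β-cells, 78.8 CPM (61.4 to 99.5) in α-cells and 56.3 CPM (35.3 to 85.2) in PP-cells. These intervals overlap, and δ-cells were at 22.5 CPM (8.27 to 49.1). Its hormone-free level was higher in β-cells, at 157 CPM (150 to 165), than in α-cells, at 105 CPM (81.7 to 132). PP-cells, at 106 CPM (66.6 to 161), overlapped both. Isl1 was highest in δ-cells at 605 CPM (515 to 706), above α-cells at 248 CPM (216 to 282), PP-cells at 205 CPM (162 to 255) and β-cells at 125 CPM. Pax6 on all UMIs was at 304 CPM (242 to 378) in δ-cells and between 196 and 210 CPM in the other classes. This contrast changed with the scaling, as its hormone-free intervals overlapped for δ-cells (331 to 518 CPM), PP-cells (315 to 491) and β-cells (370 to 394). The α-cells were then lower in Pax6, at 261 CPM (223 to 302). Foxa2 on all UMIs was between 54.0 and 74.3 CPM in all 4 classes. In endothelial-, macrophage- and mesenchymal-like cells no factor had more than 5 UMIs in any library.

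**Figure D4:**
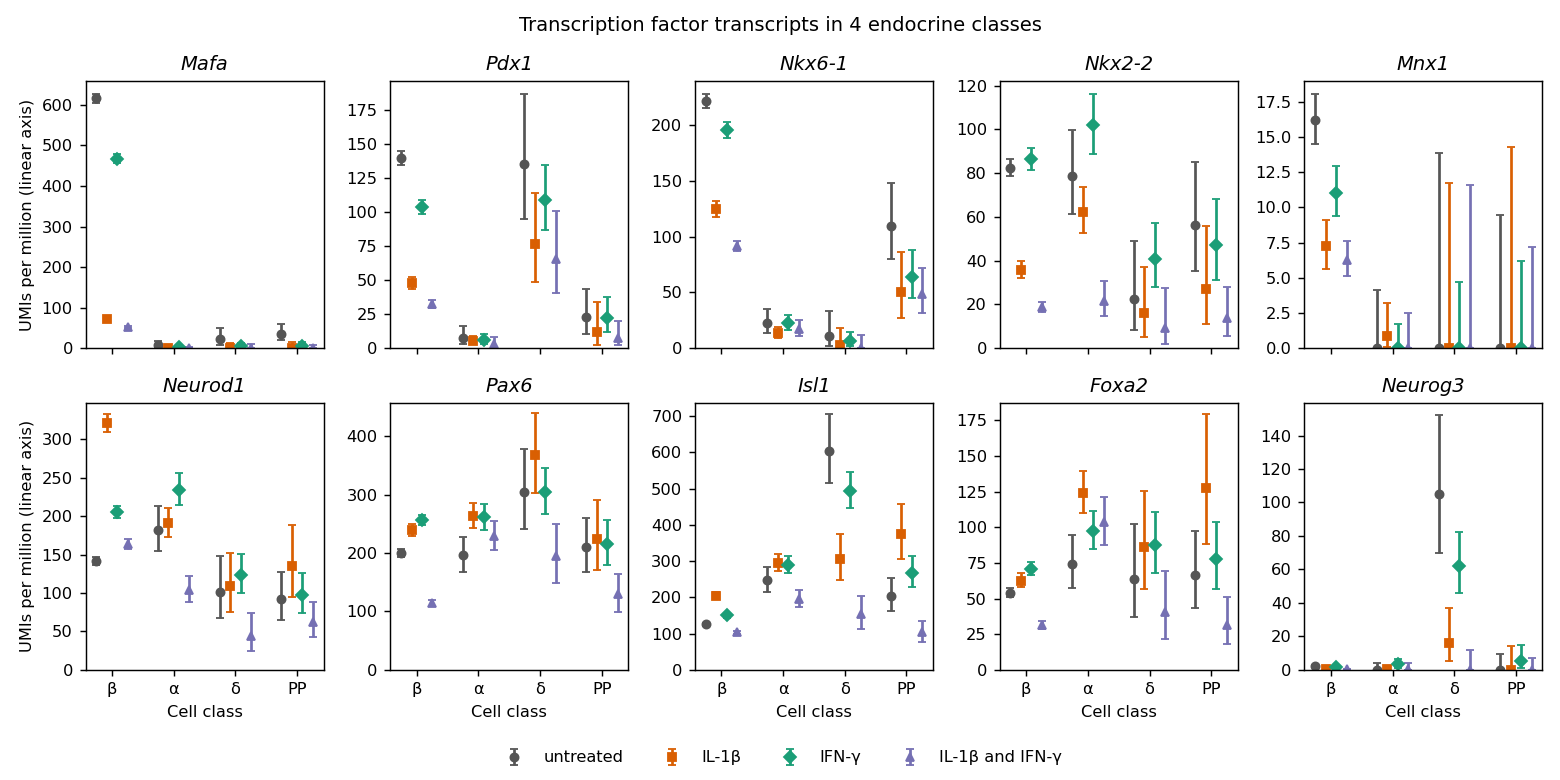
Level of each factor in β-, α-, δ- and PP-cells of the 4 libraries, in CPM on linear axes that differ between panels, with bars for the 95% exact Poisson interval. Mafa and Mnx1 stand out in β-cells, and Isl1 and Neurog3 are highest in untreated δ-cells. Pdx1 is as high in untreated δ-cells as in β-cells on all UMIs, though not on hormone-free totals. The combined library is low in most panels.

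In α-cells 6 factors were measured among 9341 genes. After IL-1β 1 was lower, Nkx6-1, against 21.7% of all genes, a call lost with per-cell means, 4000 UMIs per cell, a 20% mitochondrial limit, a hormone share of at least 20% or, by leaving the gene out, a mean of at least 20 CPM (its ratio of 0.594 ran from 0.303 to 0.989 over the alternatives). After IFN-γ none was lower, against 8.76%. After both cytokines 2 were lower, against 29.2%. With no upper limit on genes per cell, which had removed more untreated cells than others, 7 factors were measured, and 2 were lower after IL-1β and 4 after both, against 22.9% and 30.4% of all genes, with Nkx6-1 among them at ratios of 0.543 and 0.642. One of the 2 lower with the limit was Nkx2-2, at 78.8 CPM (61.4 to 99.5) untreated, 62.4 CPM (52.5 to 73.6) with IL-1β, 102 CPM (88.9 to 116) with IFN-γ and 21.8 CPM (14.9 to 30.8) after both, which was 3.61-fold lower (2.35 to 5.67). The other was Neurod1, at 182, 191, 235 and 104 CPM in that order, 1.75-fold lower (1.39 to 2.20) in the combined library. With cells thinned to 4000 UMIs Neurod1 was 1.48-fold lower there, short of the 1.5-fold limit. Pax6, Isl1 and Foxa2 stayed within 1.5-fold of untreated in the combined library, at ratios of 1.17 (0.968 to 1.41), 0.790 (0.660 to 0.946) and 1.39 (1.04 to 1.89). Thus Pax6 and Foxa2, lower in β-cells with both cytokines, had ratios above 1 in α-cells, and this contrast between classes was not tested. For Foxa2 the α-cell ratio turned to 0.914 with a hormone share of at least 20%. Foxa2 was also higher in α-cells after IL-1β, at 124 CPM against 74.3 untreated, by 1.67-fold (1.28 to 2.22), the 1 factor higher against 18.2% of all genes, with 0 against 16.8% and 17.9% after IFN-γ and both. The median log2 ratio of the 6 was 0.16, 0.37 and -0.37 after IL-1β, IFN-γ and both, beside -0.06, 0.08 and -0.18 over all genes, and the counts lower were the same on hormone-free totals. Of 6 ductal markers Spp1 was the most abundant in α-cells, at 2287, 8848, 3070 and 4174 CPM, while Krt7 was at 151, 93.1, 138 and 100.1 CPM, Cldn3 between 27.9 and 55.4 CPM, and Krt17, Krt19 and Sox9 at or below 4.90 CPM. The part of such RNA in the α-cell values was not tested.

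In δ-cells 7 factors were measured among 5356 genes, from only 31 untreated cells. After IL-1β 3 were lower, Pdx1, Isl1 and Neurog3, against 20.01% of all genes, after IFN-γ 1 was, Neurog3, against 11.2%, and after both cytokines all 7 were, against 29.7%. The count after IL-1β was 1 with a leading hormone of at least 90% (3 factors measured), a hormone share of at least 20% (2 measured) or a 2-fold limit, and that after IFN-γ was 2 with per-cell means and 0 with a 2-fold limit or at 4000 UMIs per cell. The counts of 3 and 1 include Pdx1 and Neurog3, respectively, whose directions turned with the class limits. The shares of all genes higher were 24.3%, 17.5% and 21.7%. Nkx2-2 was the 1 factor counted higher, after IFN-γ, at 40.6 against 22.5 CPM (a ratio of 1.80), from only 6 untreated UMIs, and its direction turned at 2500 non-hormone UMIs per cell (0.903) and with the 5% hormone limit (0.959). The median log2 ratio of the 7 was -0.50, 0.00 and -1.21, beside 0.06, 0.03 and -0.15 over all genes, and on hormone-free totals Nkx2-2 was a further factor lower after IL-1β. Isl1, which binds the somatostatin promoter, was at 605 CPM (515 to 706) untreated, 306 CPM (248 to 374) with IL-1β, 494 CPM (446 to 545) with IFN-γ and 154 CPM (114 to 203) in the combined library. This combined value was 3.94-fold lower (2.85 to 5.54) and IL-1β alone 1.98-fold lower (1.525 to 2.57). Pdx1 had levels of 135, 76.6, 109 and 65.8 CPM, with intervals that overlapped for all neighbours. With the 5% hormone limit the ratios to untreated were 0.529 after IL-1β and 0.254 after both for Isl1, and 0.577 and 0.471 for Pdx1. With a hormone share of at least 20% the Isl1 ratio after both was 0.490, or 2.04-fold lower. The direction of Pdx1 after IL-1β turned to 1.30 with a leading hormone of at least 90% and to 3.08 with a hormone share of at least 20%, so no direction is read for it. With the 5% limit Foxa2 after both cytokines went from 0.638 to 1.08. With the hormone limit raised to 20% the count after both cytokines was 1 in place of 7, and the ratio of Pax6 there turned from 0.638 to 1.43.

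Neurog3, which endocrine cells are known to switch off as they mature, was seen in δ-cells. It had 28 UMIs in 14 of 31 untreated δ-cells, 105 CPM (69.9 to 152), 5 UMIs in 3 of 57 with IL-1β, 15.9 CPM (5.18 to 37.2), 49 UMIs in 32 of 107 with IFN-γ, 62.2 CPM (46.0 to 82.2), and 0 UMIs in 43 cells with both cytokines. The 95% upper limit of the share of cells with a UMI, which is not that of cells expressing the gene, is then 8.22%, and a floor of 3 cells in 43 is 6.98%. This was 6.60-fold lower with IL-1β (2.52 to 21.9), or 5.22-fold with the 5% hormone limit, and, with a floor of 3 UMIs in the combined library, at least 11.2-fold lower with both cytokines, a bound that takes the untreated count as read and is not a 95% limit. After IFN-γ its ratio of 0.591 turned to 1.504 with a hormone share of at least 20%, so no direction is read for IFN-γ. With cells thinned to 4000 UMIs the ratio was 0.587 but Neurog3 no longer passed the filter on low genes. In α- and PP-cells it had at most 7 UMIs in any library, and its untreated share of δ-cells was 45.2% (27.3 to 64.0), against 1 UMI in all untreated non-endocrine cells.

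In PP-cells 6 factors were measured among 4479 genes, from 30 untreated cells. After IL-1β 2 were lower, Nkx6-1 and Nkx2-2, against 13.4% of all genes, after IFN-γ 1 was, Nkx6-1, against 7.64%, and after both cytokines 5 were, against 21.7%. The median log2 ratio of the 6 was 0.35, 0.07 and -1.03, beside 0.35, 0.21 and 0.00 over all genes, and on hormone-free totals Neurod1 was also lower after both cytokines. With cells thinned to 4000 UMIs, where 5 of the 10 factors passed the filter on low genes, 2 in place of 5 were lower after both cytokines and 1 in place of 2 after IL-1β, and after IFN-γ none was with no upper limit on genes or a hormone share of at least 20%. Nkx6-1 was at 110 CPM (79.6 to 148) untreated, 50.3 CPM (26.8 to 86.1) with IL-1β, 64.1 CPM (45.4 to 88.0) with IFN-γ and 48.9 CPM (31.6 to 72.1) after both, where the 3 cytokine intervals overlapped. Nkx2-2 was 4.11-fold lower with both cytokines (1.70 to 11.4), from 22 and 7 UMIs. Over the alternatives this fold ran from 2.18 (4000 UMIs per cell) to 8.97 (a leading hormone of at least 90%). With IL-1β 2 factors were higher, against 39.00% of all genes (24.8% with IFN-γ and 23.1% with both, where no factor was). Isl1 was at 376 CPM (305 to 458) against 205 untreated, though not 1.5-fold higher on hormone-free totals, and at 104 CPM (77.6 to 135) in the combined library. Foxa2 was at 128 against 66.5 CPM, a ratio of 1.92 (1.11 to 3.35), or 1.504 on hormone-free totals. At 4000 UMIs per cell the Foxa2 ratio was 1.46, under the 1.5-fold limit. Mafa UMIs numbered 14 in untreated PP-cells, 3 with IFN-γ and 0 in the other two libraries.

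Markers of other cells also differed between the libraries in these 2 small classes. In PP-cells the 6 acinar markers summed to 225, 7.74, 35.4 and 13.7 CPM, led by Ctrb1 at 115 CPM untreated, and the 6 ductal markers to 1956, 4759, 1773 and 2326 CPM, most of it Spp1, while Krt19 was at or below 2.56 CPM. In δ-cells the acinar sums were 86.4, 22.3, 33.0 and 15.7 CPM, led by Ctrb1 at 48.9 CPM untreated, and the ductal sums 402, 565, 327 and 295 CPM, led by Krt7 or Spp1. The macrophage markers summed to 46.0, 19.4, 11.8 and 21.5 CPM in PP-cells and 94.0, 41.5, 68.5 and 100.3 CPM in δ-cells, with C1qa the most abundant and Ptprc at 0 in all. The part of this RNA in the δ- and PP-cell values was not tested.

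Markers of other cells in the β class were checked as values. The summed level of 8 macrophage markers was 75.2, 49.4, 47.5 and 146 CPM, and in the combined library C1qa made up 137 CPM of it while Ptprc was at 0. That of 6 acinar markers was 47.9, 12.6, 69.6 and 292 CPM, led by Ctrb1 at 162 CPM in the combined library. Both sums were lower with IL-1β than in untreated β-cells, while other markers were higher there. The sum of 6 ductal markers was 250, 424, 252 and 240 CPM, in which Spp1 was at 13.8, 250, 20.9 and 37.1 CPM, highest after IL-1β, while Krt7 was at 204, 143, 190 and 172 CPM, and Krt19, Krt17 and Sox9 were at or below 2.54 CPM. That of 8 endothelial markers was 6.37, 15.4, 6.50 and 6.66 CPM, with Flt1 the highest after IL-1β at 3.16 CPM, and the 7 mesenchymal markers summed to at most 4.26 CPM. Glucagon and somatostatin were also highest in the IL-1β library. Glucagon made up 0.0439%, 0.303%, 0.0717% and 0.108% of the UMIs of β-cells and somatostatin 0.00759%, 0.0779%, 0.0233% and 0.0317%. Pancreatic polypeptide made up 0.0454%, 0.0853%, 0.0897% and 0.0627%, and was highest with IFN-γ. With a leading hormone of at least 90%, or without the cells that Scrublet called doublets, 5 factors were lower after IL-1β as before. Neither alternative measures the part of RNA from other cells in the β-cell values, which was not tested.

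Within a library the factors also differed between β-cells. High Hspa1a, a heat shock transcript, was set at 10 or more per 10000 UMIs, which 18, 90, 81 and 89 β-cells met. With IL-1β these cells held Mafa at 316 CPM (274 to 362), against 54.7 CPM (50.02 to 59.7) in the remaining 1001, and Pdx1 at 89.1 CPM (67.5 to 115) against 44.8 CPM (40.5 to 49.3). In untreated islets the order was opposite, with Mafa at 200 CPM (148 to 266) in the 18 cells and 622 CPM (611 to 633) in the rest. Under IFN-γ Mafa was 344 CPM (304 to 389) against 474 CPM (462 to 486), and with both cytokines 108 CPM (89.3 to 130) against 48.2 CPM (44.7 to 51.9). For Neurod1 the high-Hspa1a cells were lower with IL-1β, at 188 CPM (155 to 224) against 330 CPM (319 to 342). Their insulin share was 24.3% with IL-1β, beside 22.6% in the rest, and their median depth was 6689 against 8877 UMIs.

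β-cells were also divided by whether they held a UMI of Nos2, the inducible nitric oxide synthase that cytokines switch on. With IL-1β the 342 Nos2 cells had Mafa at 34.1 CPM (28.1 to 41.0) and the 749 others 91.2 CPM (84.0 to 98.9), and with both cytokines the 913 Nos2 cells had 42.7 CPM (39.0 to 46.5) and the 349 others 82.4 CPM (73.5 to 92.1). Both groups lay far below the 617 CPM of untreated β-cells. Pdx1 was also lower in the Nos2 cells, at 34.7 CPM (28.7 to 41.6) against 54.4 CPM (48.8 to 60.4) with IL-1β, whereas Neurod1 had overlapping intervals, at 321 CPM (302 to 341) and 321 CPM (307 to 335). Nkx6-1 also had overlapping intervals with IL-1β, at 132 CPM (120 to 145) in the Nos2 cells and 121 CPM (113 to 130) in the others. With both cytokines it was lower in the Nos2 cells, at 86.0 CPM (80.8 to 91.4) against 109 CPM (98.8 to 120). The Nos2 cells were deeper, with medians of 9470.5 against 8448 UMIs with IL-1β and 12936 against 10991 with both. These groups are cells of 1 library and were not compared over samples.

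**Figure D5:**
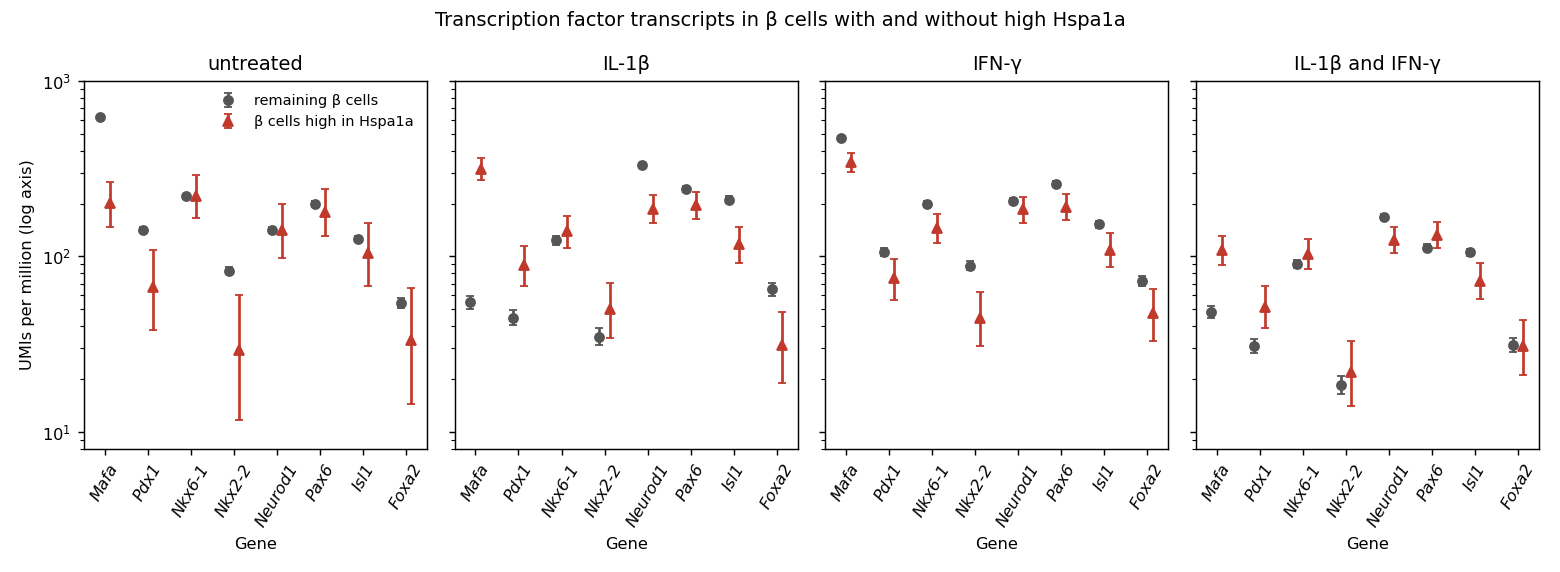
Level of 8 factors in β-cells with Hspa1a at or above 10 per 10000 UMIs (red triangles) and in the remaining β-cells (grey circles), in CPM on a log axis, 1 panel per library, with bars for the 95% exact Poisson interval. With IL-1β Mafa is at 316 CPM in the high-Hspa1a cells and 54.7 CPM in the rest, and in untreated islets the order is the other way round.

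Other genes of the program were taken from 3 lists. Of 42 other endocrine transcription factors 25 were measured in β-cells, with 5 lower and 8 higher after IL-1β, 0 and 5 after IFN-γ, and 14 and 4 after both cytokines. The shares of all genes were 8.99%, 1.06% and 17.3% lower and 36.3%, 17.7% and 20.5% higher, so that the counts higher lay near those of all genes. The list stood at median log2 ratios of 0.42, 0.29 and -0.84 beside 0.37, 0.29 and 0.05 over all genes. On hormone-free totals 29 were measured, with 11, 3 and 17 lower, against 22.7%, 5.67% and 28.6% of all genes, and 4, 3 and 2 higher, against 15.4%, 6.08% and 13.6%. After both cytokines Myt1, a zinc finger factor of endocrine differentiation, was at 4.38 CPM against 21.2 untreated, Mlxipl, the glucose-responsive factor ChREBP, at 37.6 against 143, and Rfx6, which acts downstream of Neurog3, at 12.7 against 38.3.

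Of 20 β-cell genes that these factors bind or drive, 19 were measured, and 10, 2 and 10 were lower after IL-1β, IFN-γ and both cytokines, with 2, 1 and 1 higher, against the same shares of all genes (8.99%, 1.06% and 17.3% lower, 36.3%, 17.7% and 20.5% higher). Their median log2 ratios were -0.86, -0.08 and -0.69, beside 0.37, 0.29 and 0.05 over all genes. On hormone-free totals 13, 6 and 12 were lower, against 22.7%, 5.67% and 28.6%, and 1, 0 and 1 higher, against 15.4%, 6.08% and 13.6%. The glucose transporter gene Slc2a2 was at 138 CPM untreated, 13.6 with IL-1β, 90.9 with IFN-γ and 10.2 in the combined library, and Ucn3, a peptide of mature β-cells, at 168, 31.2, 141 and 37.7 CPM. Hadh, a mitochondrial enzyme that restrains insulin release, was at 316, 112, 292 and 91.1 CPM. Syt4, a vesicle protein, was higher, at 156, 494, 270 and 319 CPM. Of 12 transcripts that are kept low in β-cells or mark their dedifferentiation only 3 were measured. Ldha was at 3.28, 16.9, 5.77 and 8.06 CPM, and Serpina7 at 3.03, 13.9, 4.47 and 5.26 CPM. Hes1, which is on both this list and the first, was lower after both cytokines, at 3.23 CPM against 7.86. The progenitor gene Sox9 and the dedifferentiation marker Aldh1a3 did not pass the filter on low genes.

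The genes most like each factor were sought by Pearson's r of log2(CPM + 1) over the 16 values of 4 classes in 4 libraries, which share libraries and depth, so that r is a description. For Mafa they were Slc2a2 (r = 0.954), Emilin1 (0.940) and Ins1 (0.922), and for Pdx1 they were Sez6l (0.970), Frzb (0.933) and Hadh (0.928). Nkx6-1 was followed by Wls (0.897), Ociad2 and Ddc, and Nkx2-2 by Rbl2 (0.944), Sphkap and Slc7a8. Mnx1 was nearest to Gad1 (0.971), Msln and Car10. Among the shared factors the nearest genes were Tgoln1 for Neurod1 (0.917), Zmynd11 for Pax6 (0.890), Lztfl1 for Isl1 (0.938) and Cep57 for Foxa2 (0.919).

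The genes lie on 5 chromosomes of the mm10 build as annotated by GENCODE: Pdx1 at chr5:147269959-147275848, Nkx6-1 at chr5:101658139-101664996, Mnx1 at chr5:29473034-29478470, Nkx2-2 at chr2:147177546-147194243, Neurod1 at chr2:79452521-79456751, Pax6 at chr2:105668900-105697364, Foxa2 at chr2:148042877-148046969, Mafa at chr15:75745490-75748228, Isl1 at chr13:116298281-116309689 and Neurog3 at chr10:62133090-62134763. A pair of them have antisense neighbours in the tables. Nkx2-2os had 2 UMIs in the β-cells of all libraries together, and Pax6os1, whose annotated span covers the start of Pax6, had 8.90, 5.41, 9.89 and 3.87 CPM. How reads of the 2 strands were assigned is not stated by the sources, so Pax6 counts may share reads with it.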

How the data were processed

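Single-cell RNA was measured in 4 libraries of mouse islets, 1 per condition. The deposited matrices hold counts of UMIs per gene and barcode, which the authors made with Cell Ranger on mm10 per the labels (software version 3.0.0 per the file headers). For the annotation nothing was given in the sources used here, and the labels and the methods name different versions of the 3′ kit. From these counts, cells with 200 to 4000 genes and no more than 12% mitochondrial UMIs were kept (7471 of 12571 barcodes), and classes were rebuilt from hormone UMIs (at least 10% of UMIs, the leading hormone at least 60% of those), so they may differ from the study's. Kept cells with less hormone were named endothelial-, macrophage- or mesenchymal-like from at least 3 markers and 10 UMIs. Scrublet marked 48, 21, 20 and 17 possible doublets, which stayed in except in 1 alternative.

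UMIs were summed over the cells of a class. Levels have exact Poisson intervals, shares Clopper-Pearson intervals and ratios exact conditional binomial intervals, at 95%, for counting error only. No test was made, since each condition has 1 library, and genes at least 1.5-fold from untreated were counted. A level of 0 was bounded by a floor of 3 UMIs. The hormone-free totals leave out Ins1, Ins2, Gcg, Sst, Ppy, Pyy and Iapp. The counting steps were tested on simulated data. The text names the 10 factors, up to 3 genes most like each factor with at least 100 UMIs in β-cells, and 2 to 4 examples by size of ratio from each of 3 gene lists; a few items that this rule or the motif search covers are not reported here. The factors, lists and limits were chosen with earlier results of these data known. Positions come from GENCODE, by gene identifier (30934 of 31053 genes matched), and upstream sequences from RefSeq (9 of the 10 factors had one). Alternatives numbered 16, of which 2 were chosen after seeing the data. Python 3.11.15, numpy 2.4.6, scipy 1.17.1, pandas 2.3.3, scanpy 1.11.5 and matplotlib 3.10.9 were used.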

Additional observations from a re-analysis of the deposited data

Results flagged for a closer look

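Isl1 after IL-1β lay on opposite sides of its untreated level in different endocrine classes. Its level was 1.63 times untreated in β-cells and 1.84 times in PP-cells, but 0.506 times untreated in δ-cells. At 2500 non-hormone UMIs per cell the ratios were 1.1 in β-cells and 1.17 in PP-cells, under the 1.5-fold limit, and 0.377 in δ-cells. With 1 library per condition the difference between classes was not tested.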

How the results depend on the processing

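With 1 library per condition no replicate could be left out, and many values of δ- and PP-cells rest on fewer than 30 UMIs, since these classes held few cells. No paired analysis was possible because each condition has 1 library. Below, counts are of factors lower than untreated unless said otherwise, and shares are of all measured genes; the cause of a shift was not tested. With hormone genes out of the totals, β-cells had 1 factor higher after IL-1β and 3 lower after IFN-γ, and the shares lower became 22.7%, 5.67% and 28.6% in β-cells after IL-1β, IFN-γ and both, and 23.1% and 12.6% in PP-cells after IL-1β and IFN-γ. Division by the median ratio gave 1 and 3 for the same counts, with shares of 19.1% and 4.61% in β-cells and 22.6% and 13.4% in PP-cells. The mean of per-cell levels gave 1 higher after IL-1β and 1 lower after IFN-γ in β-cells, 0 in α-cells after IL-1β and 2 in δ-cells after IFN-γ. Thinning to 4000 UMIs gave 1 higher after IL-1β and 1 lower after IFN-γ in β-cells (share 1.96%), 0 in α-cells after IL-1β, 0 in δ-cells after IFN-γ, and 1 and 2 in PP-cells after IL-1β and both. Thinning to 2500 non-hormone UMIs gave 1 higher after IL-1β and 3 lower after IFN-γ in β-cells and 1 in PP-cells after IL-1β. Its shares were 24.3%, 8.41% and 29.3% in β-cells, 14.7% in α-cells after IFN-γ, and 21.9% and 13.5% in PP-cells after IL-1β and IFN-γ, and Nkx2-2 in δ-cells after IFN-γ turned from a ratio of 1.80 to 0.903.

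A 2-fold limit gave 1 higher in β-cells after IL-1β, 0 and 1 in α-cells after IL-1β and both, 1 and 0 in δ-cells after IL-1β and IFN-γ, and 0 and 3 in PP-cells after IFN-γ and both. Its shares, after IL-1β, IFN-γ and both, were 3.88%, 0.152% and 7.9% in β-cells, 9.3%, 2.19% and 15.1% in α-cells, 9.65%, 2.67% and 16.2% in δ-cells, and 6.47%, 2.43% and 10.2% in PP-cells. No filter on low genes gave 2, 1 and 4 in α-cells, 5 and 3 in δ-cells after IL-1β and IFN-γ, and 4 and 2 in PP-cells, with shares of 21.4%, 12.5% and 31.2% in β-cells, 17.2% in α-cells after IFN-γ, 31.4% and 21.0% in δ-cells, and 28.6%, 24.4% and 34.5% in PP-cells. A mean of at least 20 CPM gave 0 in α-cells after IL-1β and a share of 0.469% in β-cells after IFN-γ. No upper limit on genes gave 1 in β-cells after IFN-γ, 2 and 4 in α-cells after IL-1β and both, and 0 in PP-cells after IFN-γ. A mitochondrial limit of 20% gave 0 in α-cells after IL-1β. Leaving out Scrublet doublets, or high-Hspa1a cells (chosen after seeing the data), gave 1 in β-cells after IFN-γ each.

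A leading hormone of at least 90% gave 1 and 3 in δ-cells after IL-1β and both and 2 in PP-cells after IFN-γ, with a share of 17.6% in δ-cells after IFN-γ, and turned Pdx1 in δ-cells after IL-1β from 0.566 to 1.30. A hormone share of at least 20% gave 1 and 1 in δ-cells after IL-1β and both and 0 in PP-cells after IFN-γ, and in δ-cells turned Pdx1 after IL-1β to 3.08, Neurog3 after IFN-γ from 0.591 to 1.504 and Pax6 after both from 0.638 to 1.43. It also took Foxa2 in α-cells after both from 1.39 to 0.914. A hormone share of 5% (chosen after seeing the data) changed none of these counts by over 1.5 times, but turned Foxa2 after both to 1.08 and Nkx2-2 after IFN-γ to 0.959 in δ-cells. A leading hormone of at least 50% moved none of the 27 counts and shares.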

Other observations

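Cells left without a class also held the factors. Cells with at least 10% hormone UMIs but no leading hormone numbered 8, 46, 32 and 22 (order of libraries as above), and held 11, 0, 18 and 0 Neurog3 UMIs. Their make-up differed between libraries. Somatostatin made up 6.26%, 1.67%, 3.54% and 3.20% of their UMIs and insulin 0.601%, 5.63%, 2.88% and 3.74%. The part of this difference in the Neurog3 counts was not tested. Cells with less hormone and no other identity numbered 123, 386, 336 and 212, and held 36, 10, 45 and 1 Neurog3 UMIs, at 47.3 CPM (33.2 to 65.6), 4.597 CPM (2.20 to 8.45), 20.4 CPM (14.9 to 27.3) and 0.750 CPM (0.0190 to 4.18). In these cells too Neurog3 was lower in both libraries with IL-1β. Their make-up also differed, with insulin at 1.21%, 3.04%, 2.58% and 2.50% of their UMIs and somatostatin at 1.43%, 1.20%, 1.10% and 1.25%. Its part in the Neurog3 levels was not tested. Mafa in the same cells was at 43.4, 24.4, 77.0 and 18.0 CPM.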
